A study of Homo sapiens with 4 samples.

Results

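Aminoacyl-tRNA synthetases join each amino acid to its tRNA, the step that fixes which amino acid a codon stands for. The set described here holds the 36 synthetase genes whose gene name in the deposited table of 20665 genes equals a name on a fixed list. It has 20 genes for cytosolic enzymes and 16 genes, with names ending in 2, for enzymes that work in mitochondria. All 36 were found, and all 36 passed the filter on low counts that left 13626 genes for testing. The cells were NALM6, a human cell line from acute lymphoblastic leukemia of B cell precursors, grown in RPMI with serum. The vehicle group (n = 2 libraries) received DMSO for 45 min. The AICAR group (n = 2 libraries) spent 24 h in glucose-free medium before 45 min with 15 mM AICAR, a nucleoside that cells phosphorylate into an AMP mimic, the activator of the energy-sensing kinase AMPK. Glucose-free culture is stated for the AICAR group alone, and if the vehicle cells had glucose, its loss and AICAR cannot be told apart.

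As background, cytosolic synthetases charge tRNAs for nuclear-encoded proteins, and mitochondrial synthetases, also encoded in the nucleus, charge the tRNAs of the mitochondrial genome. Class I and class II enzymes have unrelated catalytic domains. Several cytosolic enzymes are held with the scaffold proteins AIMP1, AIMP2 and EEF1E1 in the multisynthetase complex. Uncharged tRNA activates the kinase GCN2, which phosphorylates eIF2 and raises translation of the transcription factor ATF4, and many cytosolic synthetase genes are known ATF4 targets. GARS and KARS give both the cytosolic and the mitochondrial enzyme, EPRS charges glutamate and proline, and FARSA and FARSB encode the subunits of the cytosolic phenylalanine enzyme. QARS has no mitochondrial partner in the set, since mitochondrial glutaminyl-tRNA is made by a separate amidation route.

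The element that ATF4 binds has the core TGATGNAA. RefSeq's promoter table (GRCh38.p14, 250 bases before to 50 after a gene's start) matched 30 of the 36 genes. The core, on either strand, was in at least 1 promoter entry of 7 of 16 matched cytosolic genes and 1 of 14 mitochondrial ones. Of 35116 single promoter entries, 3.62% had it. A gene can have several entries, so its chance of a match is higher than that of 1 entry. The 7 cytosolic windows are shown because they set these genes apart by sequence, and YARS2 because it is the mitochondrial gene with a match and also fell. Capitals mark the core, in the printed or the opposite direction, and each stretch is given 5′ to 3′ on the gene's strand.
AARS, chr16:70289677-70289702, minus strand: ttctcgcagTTGCATCAgccaagtta
CARS, chr11:3057409-3057434, minus strand: gggcggcggTTGCATCAgattctagg
GARS, chr7:30594836-30594861, plus strand: acgcggcgaTTTCATCAtgctccgag
IARS, chr9:92293694-92293719, minus strand: ttcagcgcgTTGCATCAcctccgtgc
MARS, chr12:57488055-57488080, plus strand: cggttccggTTGCATCAgcgagggat
NARS, chr18:57621806-57621831, minus strand: tacgctctcTGATGCAAcgccggaat
TARS, chr5:33440958-33440983, plus strand: gcctttcgaTTGCATCAgctggtcca
YARS2, chr12:32756078-32756103, minus strand: ccacactgcTGATGGAAaaattaagt

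MARS2 and PARS2 had the largest falls of the set, so the 250 bases before their starts are shown as well. Capitals mark CACGTG (the E-box, the same on both strands) in MARS2 and ACTTCCGG (the reverse complement of CCGGAAGT, an ETS factor motif) in PARS2.
MARS2, chr2:197705119-197705368, plus strand: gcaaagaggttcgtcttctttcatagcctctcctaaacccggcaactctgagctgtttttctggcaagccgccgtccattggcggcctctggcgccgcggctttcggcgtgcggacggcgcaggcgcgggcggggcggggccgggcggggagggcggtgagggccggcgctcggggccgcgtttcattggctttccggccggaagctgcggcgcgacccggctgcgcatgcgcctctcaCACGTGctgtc
PARS2, chr1:54764524-54764773, minus strand: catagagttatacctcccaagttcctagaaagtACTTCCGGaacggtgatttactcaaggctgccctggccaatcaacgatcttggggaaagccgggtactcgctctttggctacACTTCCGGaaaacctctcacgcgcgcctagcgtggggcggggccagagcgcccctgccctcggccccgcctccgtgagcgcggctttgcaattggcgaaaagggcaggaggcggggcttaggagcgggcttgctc
The E-box of MARS2 begins at position -11 from the start, and the ETS matches of PARS2 begin at -217 and -135. CACGTG was in 1 of 16 cytosolic and 3 of 14 mitochondrial genes, counting all entries of a gene, against 7.26% of single promoter entries. CCGGAAGT was in 5 of 16 and 3 of 14, against 4.14%. The cAMP response element TGACGTCA was in none of either, against 1.85% of all. All motifs were searched on both strands, and a match describes the letters and not a bound site.

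Expected counts summed to 33919915 and 36769116 in the vehicle libraries and to 32318376 and 34458010 in those with AICAR. Synthetases took 0.4077% to 0.4447% of them. The cell identity fits the label by level: the 10 B cell precursor markers had a median of 232.2 FPKM (the deposited level, scaled for transcript length and depth). The median was 14.04 FPKM for the T cell markers that were tested and 1.32 for the myeloid ones. Their summed CPM was 3692 and 3758 with vehicle and 4018 and 4099 with AICAR, and 6 of the 10 rose while EBF1 fell. The 4 T cell markers measured summed to 55.28 and 55.72 CPM with vehicle and 66.14 and 69.61 with AICAR, nearly all from the kinase genes LCK and ZAP70. The 7 myeloid markers summed to 4.107 and 3.969 CPM with vehicle and 5.009 and 4.936 with AICAR. In a bulk sample, fewer cells of a type and less RNA per cell cannot be told apart. The part of these marker shifts in the results was not tested.

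Cytosolic synthetases were the more abundant transcripts. Their FPKM, averaged over the 4 libraries, had a median of 69.2 (23.93 to 156), against 14.23 (1.852 to 38.92) for the mitochondrial enzymes. DARS, the aspartate enzyme, was the highest, with 157 and 145 FPKM with vehicle and 165 and 157 with AICAR. KARS (lysine) followed at a mean of 136.7 FPKM and IARS (isoleucine) at 132.6. These levels lay close together: the DARS vehicle libraries span 145 to 157 FPKM, and KARS reached 144 in AICAR replicate 1.

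Among the mitochondrial enzymes IARS2 led at a mean of 38.92 FPKM, with 38.4 and 36.9 with vehicle and 41.7 and 38.8 with AICAR. NARS2 (asparagine) had 26.24 and YARS2 (tyrosine) 25.42 FPKM, a difference within the spread of YARS2 over its libraries (21.1 to 31.2). PARS2, the proline enzyme, was the lowest of all 36 at 1.852 FPKM. The highest mitochondrial level thus lay above the cytosolic genes CARS (23.93), FARSB (28.77) and LARS (36.11) and below the other cytosolic genes.

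**Figure D1:**
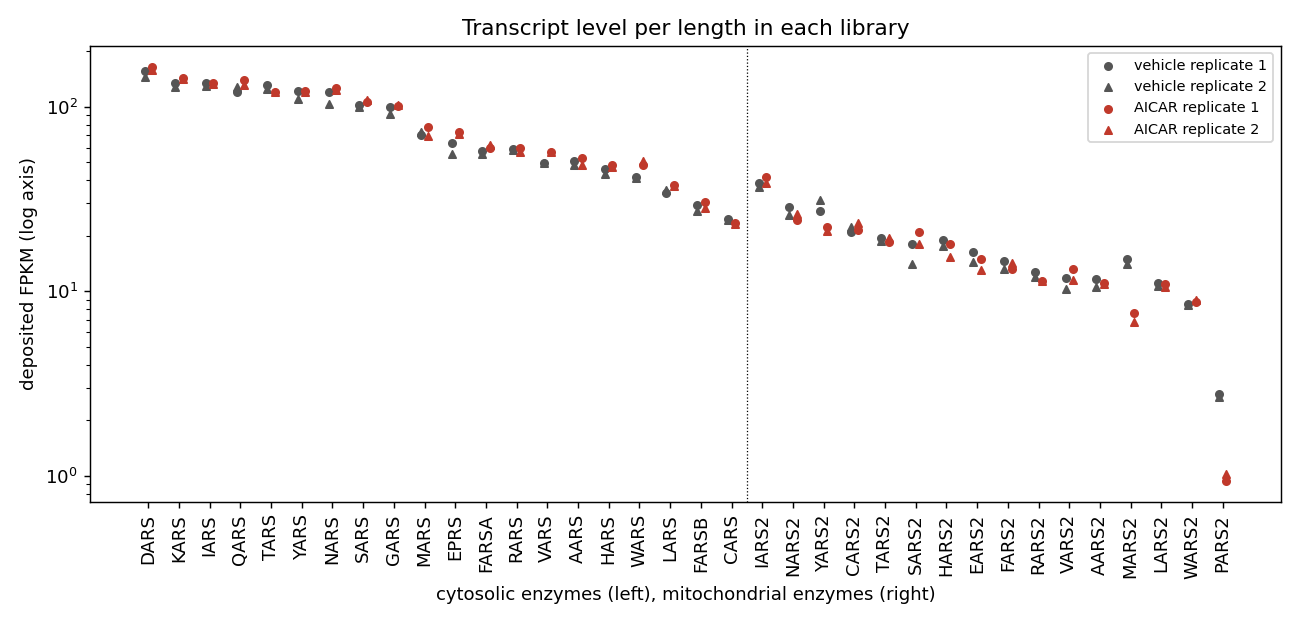
Deposited FPKM (log axis) of each synthetase in each library, cytosolic genes left of the dotted line and mitochondrial genes right of it, ordered by mean level. Most genes have closely grouped points, while the AICAR points of MARS2 and PARS2 sit below their vehicle points.

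With AICAR, 13 of 20 cytosolic synthetase transcripts rose and none fell, by small amounts. The others, 7 genes, did not pass the test (edgeR's quasi-likelihood test, adjusted p under 0.05 with Benjamini-Hochberg adjustment over all 13626 genes). All 20 fold changes were above 0, from 0.02 to 0.33 on the log2 scale, with a median of 0.14. Among all tested genes 19.4% were called higher and 19.7% lower, 39.1% in all, with a median of -0.0022. Rises were, however, common at these levels: of 2636 genes with a mean CPM (counts relative to the TMM-scaled size of the library) in the range of the cytosolic enzymes, 50.6% were called higher and 12.6% lower, with a median of 0.12. The excess of 13 in 20 is therefore much smaller against genes at like levels than against all genes, and the medians there are close.

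VARS (ENSG00000204394), the valine enzyme, had the largest rise. It had 161.5 and 153.3 CPM with vehicle and 193.5 and 202 with AICAR, or 157.4 ± 5.77 against 197.7 ± 5.98 (SD, n = 2). Both AICAR libraries lay above both vehicle libraries, and the log2 fold change was 0.33 ± 0.042 (SE; edgeR adjusted p = 0.000115), a 1.26-fold rise. Of all tested genes, 93.2% had a lower fold change than VARS.

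QARS (ENSG00000172053), which charges glutamine, had 199.3 and 201.8 CPM with vehicle and 240.1 and 243.6 with AICAR. The groups were well apart, and the rise was 0.27 ± 0.037 on the log2 scale (SE; edgeR adjusted p = 0.000192). WARS (ENSG00000140105), the tryptophan enzyme that interferon also induces, went from 79.79 and 75.42 CPM to 92.88 and 93.87. Its log2 fold change was likewise 0.27 ± 0.042 (edgeR adjusted p = 0.000463). EPRS (ENSG00000136628), the fused enzyme for glutamate and proline, had 259.6 and 252 CPM with vehicle and 307.8 and 289.1 with AICAR. The AICAR replicates of EPRS differed more from each other than those of QARS or WARS, but both exceeded the vehicle values (log2 fold change 0.22 ± 0.042, edgeR adjusted p = 0.0016).

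KARS had 246.9 and 243.7 CPM with vehicle and 283.2 and 280.5 with AICAR, or 0.20 higher on the log2 scale (edgeR adjusted p = 0.00131). AARS (alanine), FARSA (phenylalanine), GARS (glycine) and SARS (serine) followed with log2 rises of 0.19, 0.19, 0.18 and 0.17. The smallest rises called were those of YARS (tyrosine, 0.15), LARS (leucine, 0.13), HARS (histidine, 0.13) and NARS (asparagine, 0.12). YARS had 252.4 and 242 CPM with vehicle and 273.3 and 276.6 with AICAR (edgeR adjusted p = 0.00858). LARS went from 96.98 and 99.62 to 110.2 and 105.5 CPM (edgeR adjusted p = 0.0206), and HARS from 78.14 and 75.58 to 83.77 and 84.75 (0.0202). NARS had 173.1 and 168.5 CPM with vehicle and 185 and 187.4 with AICAR (edgeR adjusted p = 0.0208). In these 4 genes, too, the lower AICAR library was above the higher vehicle library.

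The 7 cytosolic genes that did not pass were FARSB (log2 fold change 0.12, edgeR adjusted p = 0.0622), IARS (0.10), MARS (methionine, 0.09), DARS (0.06), RARS (arginine, 0.04), TARS (threonine, 0.04) and CARS (cysteine, 0.02). IARS, the member with the highest count, had 537.5 and 526.9 CPM with vehicle and 570.6 and 566.9 with AICAR (edgeR adjusted p = 0.0624). DARS had 189.3 and 198.9 CPM with vehicle and 207.5 and 197.6 with AICAR, so its groups overlapped (edgeR adjusted p = 0.286). In the other 19 cytosolic genes both AICAR values lay above both vehicle values, which holds for 34.3% of all tested genes, with 34.9% apart in the other direction. That share was not counted among genes at like levels, of which 50.6% were called higher. For TARS, CARS and RARS the scales differed in direction. TARS had 248.4 and 243.9 CPM with vehicle against 257 and 250 with AICAR, while its FPKM values were 132 and 124 against 120 and 120. CARS had 56.68 and 56.93 against 57.25 and 57.98 CPM, and 24.6 and 24.2 against 23.6 and 23.3 FPKM. The mean FPKM of RARS was 58.64 with vehicle and 58.2 with AICAR.

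**Figure D2:**
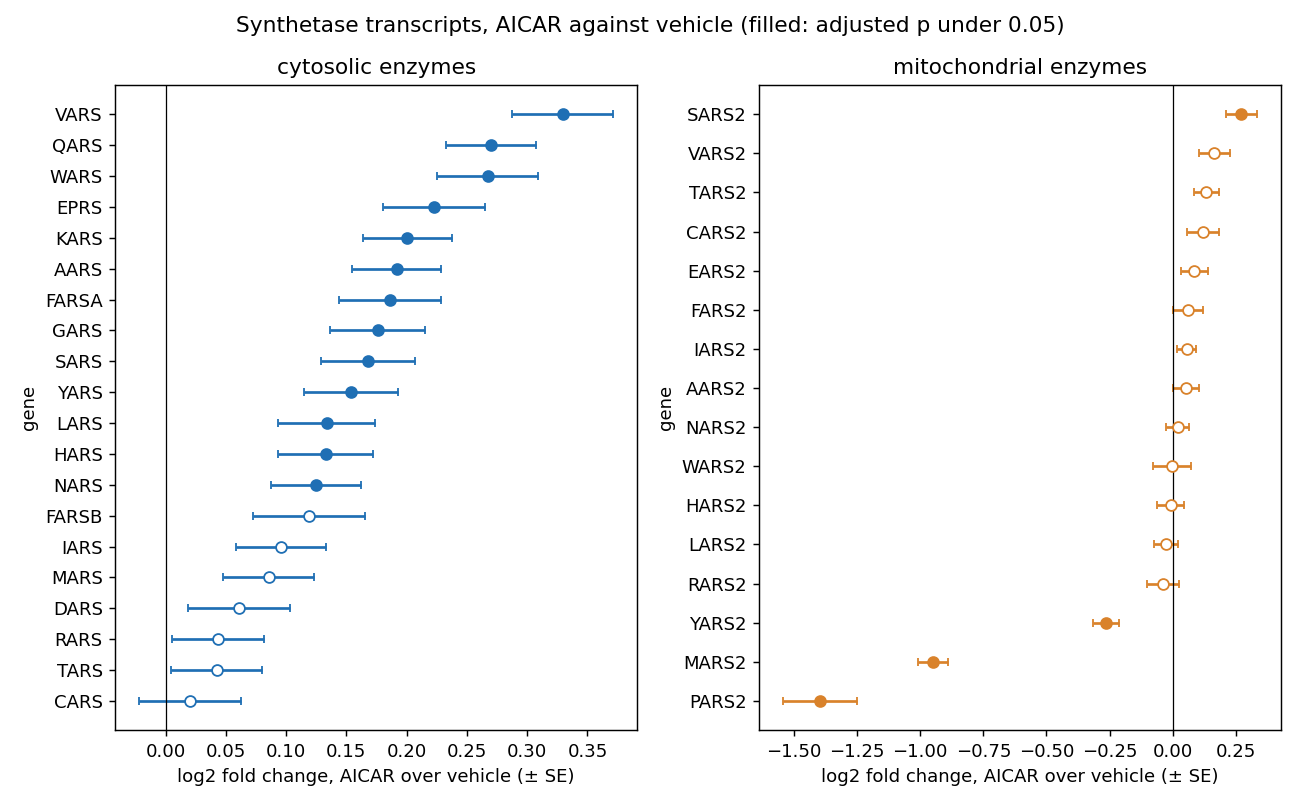
Log2 fold change of each synthetase, AICAR over vehicle, with its standard error (edgeR, n = 2 libraries per group), filled where the adjusted p is under 0.05. The horizontal scales of the panels differ: cytosolic genes lie between 0.02 and 0.33, and mitochondrial genes between -1.40 (PARS2) and 0.27 (SARS2).

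The cytosolic count depended on how libraries were scaled. With total counts alone, 6 cytosolic genes were called higher and none lower, and CARS, RARS and TARS had log2 fold changes just below 0. That scaling moved the median of all genes to -0.062. VARS, QARS, WARS, EPRS, KARS and AARS kept their calls in every alternative run. Without AICAR replicate 2 the count was 9, with the calls of FARSA, HARS, NARS, SARS and YARS lost. HARS and NARS also lost theirs without vehicle replicate 2 (11 called), LARS without vehicle replicate 1 (14 called), and LARS and NARS without AICAR replicate 1 (11 called).

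By place in the multisynthetase complex, no cytosolic gene inside or outside it was called lower. Of the 8 genes of the complex, 4 rose (QARS, EPRS, KARS and LARS), with a median log2 fold change of 0.11. Of the 12 outside it, 9 rose, with a median of 0.16. Among genes at like levels 50.6% were called higher with a median of 0.12, so the share in the complex is no higher than theirs. The scaffold genes were not called: AIMP1 had a log2 fold change of 0.04, AIMP2 of 0.02 and EEF1E1 of -0.05 (edgeR adjusted p = 0.58, 0.854 and 0.505), and their groups overlapped. By catalytic class, 5 of 9 class I and 7 of 10 class II cytosolic enzymes rose, EPRS, which has both, being counted in neither.

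Of the 13 cytosolic genes listed as ATF4 targets from background knowledge, 9 rose with a median log2 fold change of 0.15, and of the other 7, 4 rose with a median of 0.13. Of the 7 genes whose TGATGNAA windows are printed, 3 rose (AARS, GARS and NARS), with a median log2 fold change of 0.10. Of the 9 matched genes without the core, 7 rose, with a median of 0.19. The 4 cytosolic genes with no promoter in the table, DARS, LARS, VARS and YARS, included 3 that rose. The difference between genes with and without the core was not tested, and all these shares and medians stand beside 50.6% called higher and a median of 0.12 among genes at like levels.

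**Figure D3:**
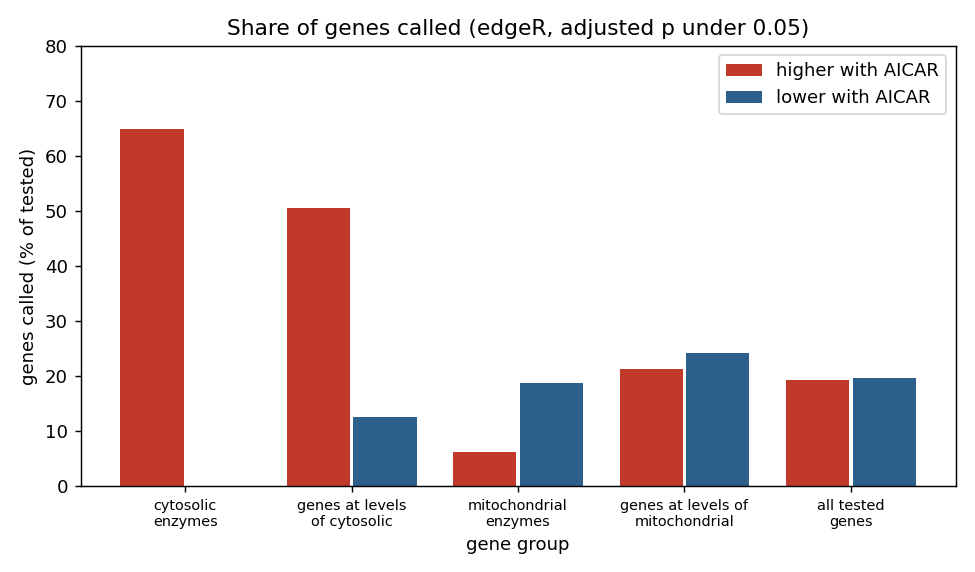
Share of genes called higher or lower (edgeR, adjusted p under 0.05) among the 20 cytosolic and 16 mitochondrial synthetases, among genes in the same CPM ranges, and among all 13626 tested genes. Bars start at 0. The cytosolic bar for higher stands above that of the 2636 genes at similar levels (50.6%), and cytosolic genes have no bar for lower.

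The mitochondrial synthetases showed another picture, with few calls and the largest changes of the set downward. MARS2, PARS2 and YARS2 fell, SARS2 rose, and 12 of 16 did not pass. Their median log2 fold change was 0.04, and 9 of 16 values were above 0. Of 8797 tested genes in their range of mean CPM, 21.4% were called higher and 24.2% lower, with a median of 6e-04, so 1 higher and 3 lower of 16 are no larger shares than among genes at like levels. In 7 genes both AICAR values lay above both vehicle values and in 4 both lay below, against 69.2% of all tested genes in either direction.

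MARS2 (ENSG00000247626, chromosome 2), the mitochondrial methionine enzyme, fell by 0.95 on the log2 scale. It had 1502 and 1524 counts with vehicle and 726 and 695 with AICAR. In CPM these were 42.54 and 41.44 against 22.74 and 20.79, or 41.99 ± 0.783 against 21.76 ± 1.38 (SD, n = 2). The gap between the groups was far wider than that between replicates (log2 fold change -0.95 ± 0.059 SE, edgeR adjusted p = 4.59e-07), a 1.93-fold fall.

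PARS2 (ENSG00000162396, chromosome 1), the mitochondrial proline enzyme, had the largest fall but rests on few reads. Its counts were 214 and 222 with vehicle and 69 and 81 with AICAR. The CPM values were 6.061 and 6.036 against 2.161 and 2.423, with no overlap, and the log2 fold change was -1.40 ± 0.146 (SE; edgeR adjusted p = 2.7e-05), a 2.63-fold fall. The authors' deposited table gives -0.932 for PARS2 with a q-value of 4.1e-06, and -0.881 for MARS2. Of all 13626 tested genes, 2.14% had a lower fold change than PARS2 and 4.76% a lower one than MARS2.

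YARS2 (ENSG00000139131, chromosome 12), the mitochondrial tyrosine enzyme, had 39.51 and 41.71 CPM with vehicle and 33.48 and 34.22 with AICAR. Both AICAR values were below both vehicle values (log2 fold change -0.26 ± 0.052 SE, edgeR adjusted p = 0.00206), and 23.4% of tested genes had a lower fold change. SARS2 (ENSG00000104835, chromosome 19), the mitochondrial serine enzyme, had 27.64 and 25.5 CPM with vehicle and 31.1 and 33.03 with AICAR. It was the mitochondrial member that rose (log2 fold change 0.27 ± 0.061 SE, edgeR adjusted p = 0.00434). In FPKM it had 18.06 and 14.01 with vehicle and 20.96 and 18.05 with AICAR, so on that scale its groups just overlapped. The calls of MARS2, YARS2 and SARS2 held in every alternative run, and that of PARS2 in each in which it was tested.

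The other mitochondrial genes had log2 fold changes between -0.04 (RARS2) and 0.17 (VARS2). IARS2, the most abundant, had 128.1 and 127.1 CPM with vehicle and 132.3 and 132.9 with AICAR (log2 fold change 0.06, edgeR adjusted p = 0.264). NARS2 had 46.39 and 45.13 against 46.44 and 46.37 CPM (0.02, edgeR adjusted p = 0.772). AARS2, EARS2, FARS2, NARS2 and TARS2 had a lower mean FPKM with AICAR, though their log2 fold changes were above 0. For WARS2 the reverse held. The mean FPKM of TARS2 was 19.07 with vehicle and 19 with AICAR, and that of VARS2 10.99 and 12.33. VARS2 (edgeR adjusted p = 0.0535) and TARS2 (0.0567) lay just outside the threshold. Without vehicle replicate 1 both were called higher, so that 3 mitochondrial genes rose. Without vehicle replicate 2, 2 rose (SARS2 and CARS2), and without AICAR replicate 2, 2 rose (SARS2 and VARS2).

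Gene structure differed between the genes that fell and the rest of the set, a comparison chosen after their values were seen. In the GENCODE 29 annotation MARS2 lies in 1 exon, PARS2 has 1 coding exon of 2 exons, and YARS2 has 5 coding exons, the fewest of the 36. The other synthetase genes have 6 to 33. Among protein-coding genes tested, 285 of 563 with 1 coding exon were called lower (50.6%) and 14 higher (2.49%), with a median log2 fold change of -0.33. Without histone genes 256 of 534 were lower (47.9%). Genes with 2 to 5 coding exons were lower in 29.4% and higher in 18.9% (median -0.04), and those with 6 or more in 16.2% and 24.7% (median 0.03). The falls of MARS2 and PARS2 were thus larger than the median of genes of their kind but in its direction. The part of exon number in these falls was not tested.

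**Figure D4:**
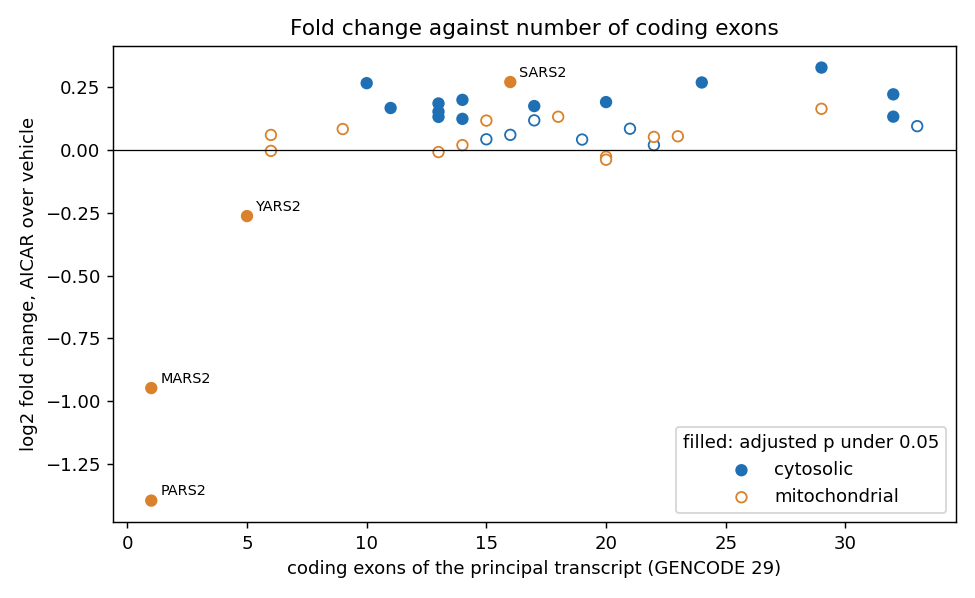
Log2 fold change, AICAR over vehicle, of each synthetase against the number of coding exons of its principal GENCODE 29 transcript, filled where the edgeR adjusted p is under 0.05. MARS2 and PARS2, with 1 coding exon each, and YARS2, with 5, lie below 0, and SARS2, with 16, lies among the cytosolic genes that rose.

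Set beside each other within a library, the enzymes for the same amino acid mostly had a higher cytosolic to mitochondrial ratio with AICAR. A ratio within a library does not depend on how libraries are scaled. Of 17 pairs over the 16 mitochondrial genes, with EPRS and FARS2 in 2 pairs each, 13 had a higher cytosolic to mitochondrial ratio of CPM in both AICAR libraries than in both vehicle libraries, 2 had a lower ratio and 2 overlapped. The median difference of the log2 ratio was 0.14. Genes in the CPM range of the cytosolic enzymes had a median log2 fold change of 0.12 and those in the range of the mitochondrial enzymes 6e-04, so a typical pair differed by about as much as genes at these levels do in general. With 2 libraries against 2, the exact two-sided permutation test cannot give less than 0.33 (0.378 adjusted over the 17 pairs), which is its value for each of the 15 pairs without overlap, so no pair can pass.

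The ratio of MARS to MARS2 was 3.552 and 3.658 with vehicle and 7.185 and 7.593 with AICAR. That of EPRS to PARS2 was 42.82 and 41.75 against 142.5 and 119.3. For YARS to YARS2 it was 6.387 and 5.802 against 8.165 and 8.081. In these pairs the mitochondrial partner fell, and in the first the cytosolic partner was not called.

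In the pairs that shifted the other way the mitochondrial partner had the larger fold change. SARS to SARS2 went from 5.872 and 6.477 to 5.79 and 5.69, and TARS to TARS2 from 6.453 and 6.691 to 6.275 and 6.064. The pairs that overlapped were CARS with CARS2 and FARSB with FARS2. With the deposited FPKM in place of CPM, 10 pairs were higher without overlap.

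**Figure D5:**
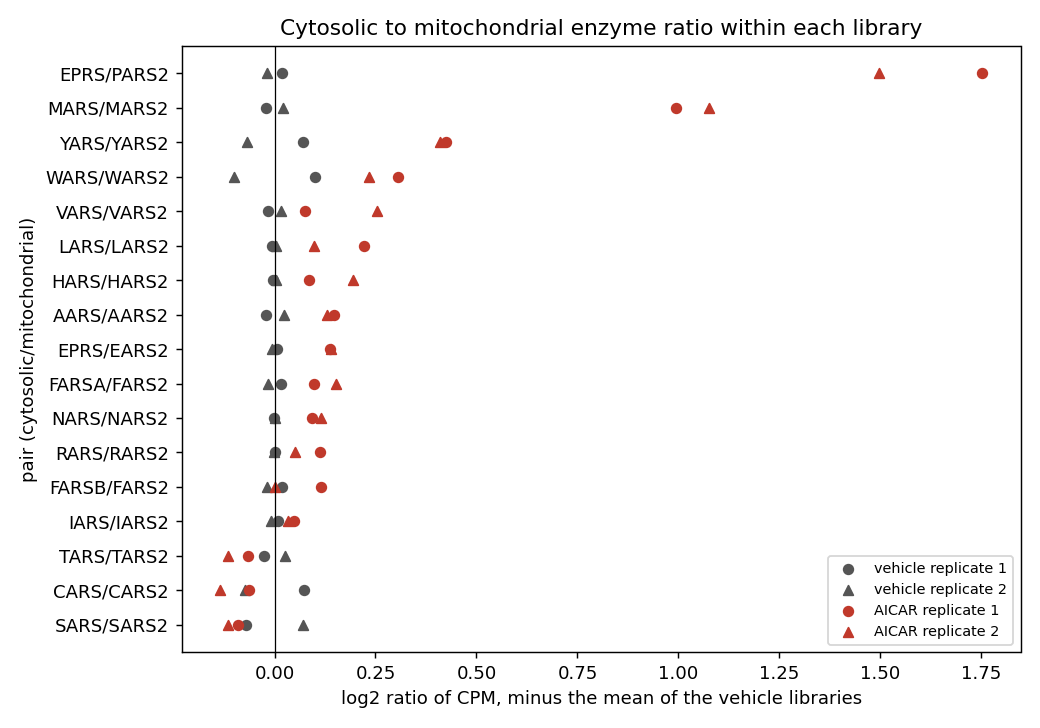
Log2 ratio of CPM of the cytosolic to the mitochondrial enzyme in each library, minus the mean of the vehicle libraries, for 17 pairs. Points right of 0 have a higher ratio than the vehicle mean. EPRS/PARS2 and MARS/MARS2 stand far to the right, and SARS/SARS2 and TARS/TARS2 lie left of 0 with AICAR.

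HARS and HARS2 are a special pair, since they are neighbours on chromosome 5 that are read in opposite directions from 84 bases of shared sequence between their starts in RefSeq. The stretch is shown on the strand of HARS2, with the ETS motif CCGGAAGT or its reverse complement in capitals.
HARS and HARS2, chr5:140691371-140691454, plus strand: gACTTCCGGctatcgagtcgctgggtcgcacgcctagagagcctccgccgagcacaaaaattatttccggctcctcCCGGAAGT
HARS rose by 0.13 on the log2 scale, while HARS2 had 38.29 and 36.89 CPM with vehicle and 38.58 and 36.23 with AICAR (log2 fold change -0.01, edgeR adjusted p = 0.93). Their ratio was 2.041 and 2.049 with vehicle and 2.171 and 2.339 with AICAR. The genes are close copies, but in no library did both have a fractional expected count, a mark of reads shared between genes. HARS2 had one in 3 of 4 libraries, where HARS was whole. HARS had one in AICAR replicate 2, where HARS2 was whole, and every other member had whole counts. The fractions thus do not show reads split between HARS and HARS2, and how well reads of this pair were told apart was not tested.

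Summed over genes, the cytosolic enzymes had 3533 and 3480 CPM with vehicle and 3910 and 3883 with AICAR, 11.1% more. The mitochondrial enzymes had 601.1 and 595.1 against 590.9 and 591.7, a difference of -1.13%. The cytosolic sum was higher also with total counts alone (6.59%) and in FPKM (6.01%), and the mitochondrial sum lower (-5.16% and -5.28%). No test was made on these sums.

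Genes that make and mature tRNA had no common direction. For comparison, 19.4% of all tested genes were called higher and 19.7% lower. Of 24 genes for RNA polymerase III and its factors, which transcribe tRNA genes, 8 rose and 6 fell, with a median log2 fold change of 0.01. GTF3C1, the largest subunit of the factor that binds tRNA promoters, rose by 0.37 (edgeR adjusted p = 3.65e-05), POLR3GL, a polymerase subunit gene, by 0.32 and MAF1, a repressor of the polymerase, by 0.27. The polymerase subunit gene POLR3F, the TFIIIC subunit gene GTF3C4 and the TATA-binding protein gene TBP had log2 fold changes of -0.42, -0.33 and -0.33. Among 20 genes for tRNA maturation, 4 rose and 5 fell (median 0.01). RPP21, ELAC2 and POP4, which act in trimming of tRNA ends, rose by 0.24, 0.15 and 0.14. The RNase P protein gene RPP38, the RNA kinase gene CLP1 and the end-trimming gene ELAC1 had -0.83, -0.64 and -0.37. With total counts alone, 4 of the polymerase list and none of the maturation list were called higher. Without AICAR replicate 1 the maturation list had 2 higher and 3 lower, and without AICAR replicate 2 it had 1 higher.

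Of 9 tested genes that assist or extend charging, 1 rose and 2 fell, beside 19.4% higher and 19.7% lower among all tested genes. AARSD1, which hydrolyses mischarged alanine tRNA, rose by 0.18 (edgeR adjusted p = 0.018). SEPSECS, the last step of selenocysteine tRNA synthesis, and QRSL1, a subunit of the mitochondrial amidation enzyme that serves glutamine in place of a synthetase, had log2 fold changes of -0.33 and -0.15. PET112, another subunit of that enzyme, was at 0.09 and not called. MTFMT, which formylates the methionyl-tRNA that MARS2 makes, was at -0.07 (edgeR adjusted p = 0.379). DTD1 had 5 to 9 counts per library and was not tested. Without vehicle replicate 2 or AICAR replicate 1, or with total counts alone, none of this list was called higher, and without AICAR replicate 2, 1 was lower.

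Among the factors that use charged tRNAs, all 5 cytosolic elongation factor genes rose (median log2 fold change 0.22), led by EEF2 (0.33), EEF1D (0.31) and EEF1G (0.22). They are among the most abundant transcripts and some have near-identical pseudogenes, which makes their counts uncertain. Of all tested genes 19.4% were called higher and 19.7% lower. At the levels of the cytosolic synthetases these shares were 50.6% and 12.6%. EEF1D lay in that range and the other elongation factor genes above it, where no share was counted. Of 11 mitochondrial translation factors, TUFM (0.26) and ICT1 (0.17) rose and C12orf65 had -0.54, with a median of -0.01. Without vehicle replicate 1, 2 were lower, and without AICAR replicate 2, or with total counts alone, 1 was higher.

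Genes that respond to amino acid shortage moved in both directions, 6 of 26 higher and 11 lower, with a median log2 fold change of -0.05. The shares among all tested genes were 19.4% higher and 19.7% lower. The largest rises were those of PYCR1 (0.30) and ALDH18A1 (0.23) of proline synthesis and PHGDH (0.26) of serine synthesis. The largest falls were those of the stress genes CHAC1, DDIT3 and DDIT4, at -3.59, -2.55 and -1.77. ATF4 itself had 543.8 and 536.8 CPM with vehicle and 573.8 and 580.8 with AICAR (log2 fold change 0.10, edgeR adjusted p = 0.0618). ASNS, the asparagine synthetase gene and a standard ATF4 target, was at 0.06 (edgeR adjusted p = 0.396).

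Among 8 genes for eIF2 and its kinases, 3 rose and 1 fell, beside 19.4% higher and 19.7% lower among all tested genes. GCN1L1, a partner that GCN2 needs, rose by 0.38 (edgeR adjusted p = 2.21e-05), and the eIF2 subunit genes EIF2S2 and EIF2S3 by 0.14 and 0.13. These 3 genes lie in the CPM range of the cytosolic synthetases, as do EIF2AK1 and EIF2S1, which were not called. In that range 50.6% of genes were called higher, with a median log2 fold change of 0.12. EIF2AK3, the kinase of endoplasmic reticulum stress, had -0.45. EIF2AK4, which encodes GCN2, was at 0.09 (edgeR adjusted p = 0.214). With total counts alone, 1 of this list and 3 of the amino acid list were called higher. Without either AICAR replicate, 1 of the eIF2 list was called higher.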

How the data were processed

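Total RNA was sequenced from 4 libraries, 2 per group. Per the labels' protocols, RNA came from the RNeasy Plus kit, libraries from a TruSeq stranded total RNA kit, and reads were single and 75 bases long. The submitters' processing notes give hg19 as the build and list RSEM 1.2.31, DESeq2, STAR 2.5.3a and Trimmomatic 0.32. For the annotation and the strand setting, the sources used here give nothing.

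The authors deposited expected counts per gene, not normalized, which were rounded to whole numbers and tested. They also deposited FPKM, normalized for length and depth, used here for levels between genes. The authors' deposited table also holds log2 fold changes and q-values (adjusted p-values) of their own comparison. In it, 25.8% of 12652 genes had a q-value under 0.05, 16 members among them. HARS (authors' q-value 0.121) and LARS (0.0815), called higher here, did not pass there. IARS (0.0278), not called here, did. No column was left without a sample (0 unmapped).

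Genes were filtered with edgeR 4.0.16 (filterByExpr, minimum count 10, minimum total 15), scaled with TMM and tested with its quasi-likelihood test, two-sided, in R 4.3.3, with Benjamini-Hochberg adjustment at 0.05. The SE is the size of the log2 fold change divided by the square root of F. The procedure was tested on simulated data. The common biological coefficient of variation was 3.628%. Replicates differed by more than sampling noise (chi-square per gene 8.353 for vehicle, 2.908 for AICAR). The labels do not say that they came from separate cultures, so p-values measure the spread between these libraries, which may be technical.

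The members and lists were chosen with earlier results of these data known. Described in full are the 4 highest and 4 lowest called members of each compartment, called members against the trend, the 3 with the highest FPKM, the 3 highest and lowest called genes of each related list, and the scaffold genes. Genes in the CPM range of the members and counts by coding exon were added after the data were seen. Gene models came from GENCODE 29, found for 97.2% of 11444 tested protein-coding genes, and promoters from RefSeq (GRCh38.p14). Neither is on the authors' build. Promoters were matched through current symbols (AARS1 for AARS, for example).

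The alternatives were RLE, upper-quartile and total-count scaling, no filter, a mean of at least 10 CPM, limma-voom and limma on log2(CPM + 1) (limma 3.58.1), DESeq2 1.42.0, a replicate block, protein-coding genes alone, an adjusted p under 0.01, deposited FPKM for ratios and sums, and leaving out each library. Figures were drawn with matplotlib 3.10.9.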

Additional observations from a re-analysis of the deposited data

How the results depend on the processing

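Of 503 values recomputed for single members under the alternatives, 444 kept their direction and side of the threshold, 25 lost a call, 17 gained one and 17 changed sign, none of them called in either case. With total counts alone, 6 cytosolic genes were higher, 1390 of all genes were higher and 3135 lower, 14 genes of the related lists were higher, and the summed levels changed by 0.0925 (cytosolic) and -0.0761 (mitochondrial) on the log2 scale. With the deposited FPKM the sums changed by 0.0846 and -0.0780. The summed cytosolic change was 0.15 as reported, and the mitochondrial one -0.02. At an adjusted p under 0.01, 1727 of all genes and 19 genes of the related lists were higher. Mitochondrial genes called higher numbered 3 with upper-quartile factors and 2 with protein-coding genes alone. Leaving out each library gave 9 to 14 cytosolic and 1 to 3 mitochondrial genes higher, 19 to 30 related genes higher (19 without AICAR replicate 2, 29 in the reported fit). The cause of these shifts was not tested.

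Sign changes were as follows. With upper-quartile factors HARS2 was 0.0003 and WARS2 0.0050. With total counts alone CARS was -0.0395, RARS -0.0160, TARS -0.0177, AARS2 -0.0076, IARS2 -0.0046 and NARS2 -0.0399. With no filter WARS2 was 0.0018, and with a mean of at least 10 CPM, under which PARS2 was not tested, CARS was -0.0203 and NARS2 -0.0204. Leaving out each library gave -0.0511 to 0.0398 for HARS2, -0.0555 to 0.0060 for LARS2, -0.0111 to 0.0387 for NARS2 and -0.0611 to 0.0462 for WARS2. HARS, LARS and NARS lost their calls also with no filter and with the CPM filter, and HARS and LARS with DESeq2.

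The replicate numbers of the libraries share only a number: deviations of same-numbered libraries had a correlation of -0.0497, and no label pairs them. A replicate block gave 2708 of all genes higher and 2721 lower, 14 cytosolic genes higher, and 2 mitochondrial genes higher, VARS2 with SARS2. With n = 2 per group, a member that did not pass is not shown to be unchanged: VARS2 (0.17) and TARS2 (0.13) were not called, while NARS (0.12), with higher counts, was.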
